A study of Mus musculus with 5375 samples.

Results

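The comparison set tumor cells (TCs) beside endothelial cells (ECs) sorted from the same 3 mouse lungs, m5, m6 and m7, at day 1.5 after tumor cell injection. Its members were the TCs and ECs of these animals that passed the authors' cell filter, 1406 of the 4045 cells kept in the series. They comprised 941 ECs and 465 TCs, and each animal gave both. The question put to them was which ligands of one cell type met an expressed receptor in the other. All 3 animals were wild-type female BALB/c mice that received 2 tail vein injections of 4T1-GFP cells, a syngeneic mammary carcinoma line carrying green fluorescent protein and stained with CellTrace dye. A labeled anti-H-2Kd antibody given intravenously shortly before sacrifice stained the cells lying inside blood vessels, which divided the TCs into an intravascular and an extravascular gate. ECs were sorted as CD31+ cells negative for CD45, PDPN, LYVE and TER119. The background was taken from ECs of 4 uninjected mice (day 0) and from uninjected 4T1 cells left over in culture, neither of which entered a test. The cultured cells formed 1 library on a sequencing lane of its own, without a replicate. Where culture levels are given below, a difference from the TCs of the lungs cannot be told apart from lane or library. The 4T1 cells are 1 line, and the TCs and ECs differed in sequencing lane, plate and number of amplification cycles, which cannot be told apart from cell type. The authors' filter had also removed ECs by immune, stromal and mural genes, so low levels of such genes in ECs carry little information.

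Lung capillaries are lined by ECs that sense growth factors, flow and contact with passing cells. Tumor cells arrested in these vessels touch the endothelium, cross it and come to rest against its basement membrane. Signals between the cells use soluble ligands that bind receptor kinases, membrane-bound ligands such as Notch ligands and ephrins that need direct contact, and matrix proteins read by integrins. RNA shows which cell type carries the message for each partner, and neither the protein nor its binding was measured.

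Each animal gave 1 EC and 1 TC library by summing the estimated read counts of its cells. Levels are in CPM, the counts of a gene for every 1000000 counts of the effective library size, after trimmed mean (TMM) scaling. They are shares of the reads of a cell type and not transcripts per cell, and more cells with a read and more reads per cell raise them alike. The median number of estimated reads per cell was 277006 to 374925 in the EC libraries and 510547 to 644081 in the gate libraries of TCs. The median number of genes per cell was 2097 to 2973 in ECs and 5721 to 6608 across the gates. Log2 levels correlated at r of 0.864 to 0.892 between EC libraries, 0.947 to 0.961 between TC libraries and 0.663 to 0.691 between the cell types, over 19593 genes that are not independent replicates.

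The labels were checked against marker genes. The 12 EC markers summed to 14524 to 19826 CPM in ECs and to 26.9 to 30.8 CPM in TCs, and Emcn and Sox17 had no read in any TC. The 10 epithelial markers, among them keratins and Epcam, summed to 3787 to 5599 CPM in TCs and to 8.55 to 19.02 CPM in ECs. Immune markers summed to 2.37 to 14.5 CPM in ECs and 3.34 to 9.08 CPM in TCs, and mural and stromal markers to 3.50 to 12.8 and 3.39 to 8.15 CPM. Platelet genes reached 4.38, 110.9 and 121.9 CPM and erythroid genes 59.02, 90.7 and 86.5 CPM in the ECs of m5, m6 and m7. The 5 alveolar epithelial genes stood at 102.4 CPM in the ECs of m6 against 2.31 and 1.86 CPM in m5 and m7, and at 15.6 to 32.7 CPM in TCs. The ECs of m5 stood apart from those of m6 and m7 in these platelet genes and in several genes below, and for the genes refitted without this library, the value is given where a call was lost.

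Of 17307 genes tested by edgeR's quasi-likelihood test, 7442 passed an adjusted p of 0.05 (43%), 3431 higher in TCs (19.8%) and 4011 higher in ECs (23.2%). The median log2 difference (TC minus EC) over all tested genes was -0.22. With library sizes taken from housekeeping genes the median was -1.18 and the calls were 1611 higher in TCs (9.31%) and 5943 higher in ECs (34.3%). With median-ratio size factors (RLE) 20.9% were higher in TCs and 21.9% in ECs. With the authors' log10 values averaged over cells, an average that gives every cell equal weight, the median was 1.12 and the calls were 9940 (75.3%) and 1562 (11.8%) of 13197. After centring those values the median was -0.54 and the calls were 4423 (33.5%) and 6967 (52.8%). Directions below are relative to TMM scaling, and where the direction of a gene given with its levels turned under one of these scalings, this is said beside it.

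The ligand and receptor list held 18 families of 3 to 36 pairs. A total of 16 of its genes had no read in either cell type, and 80.6% passed the filter on low counts. Of the genes tested, 65.7% passed the test in edgeR, beside 43% of all genes. In TCs 74 were higher (24.4%, beside 19.8% of all genes) and in ECs 41.3% (beside 23.2%), with a median log2 difference of -1.16, against -0.22 over all genes. The filter keeps a gene when either cell type is high, so these shares describe the tested genes and not the list. Among tested ligands 45 were higher in TCs and 62 in ECs. Among tested receptors 31 were higher in TCs and 72 in ECs. With mean log10 values more of the pair genes tested were higher in TCs (55.6%) than in ECs (32.9%), beside 75.3 and 11.8% of all genes. After centring these shares were 24% and 64%, beside 33.5 and 52.8% of all genes. The share higher in ECs thus lay above that of all genes on both log10 scales, as with TMM. The share higher in TCs lay below that of all genes on both log10 scales. Of the called pair genes, 97.99% stayed called in the same direction with median-ratio size factors, 99.5% with DESeq2, 90.5% with housekeeping library sizes and 83.4% with the animal as a replicate block. Over all called genes these were 7214, 7275, 5619 and 4965 of 7442. With mean log10 values 78.4% of the called genes could be tested, of which 79.5% kept their direction and call and 15 were called in the opposite direction. With centred values these figures were 80.8% and 11.

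**Figure D1:**
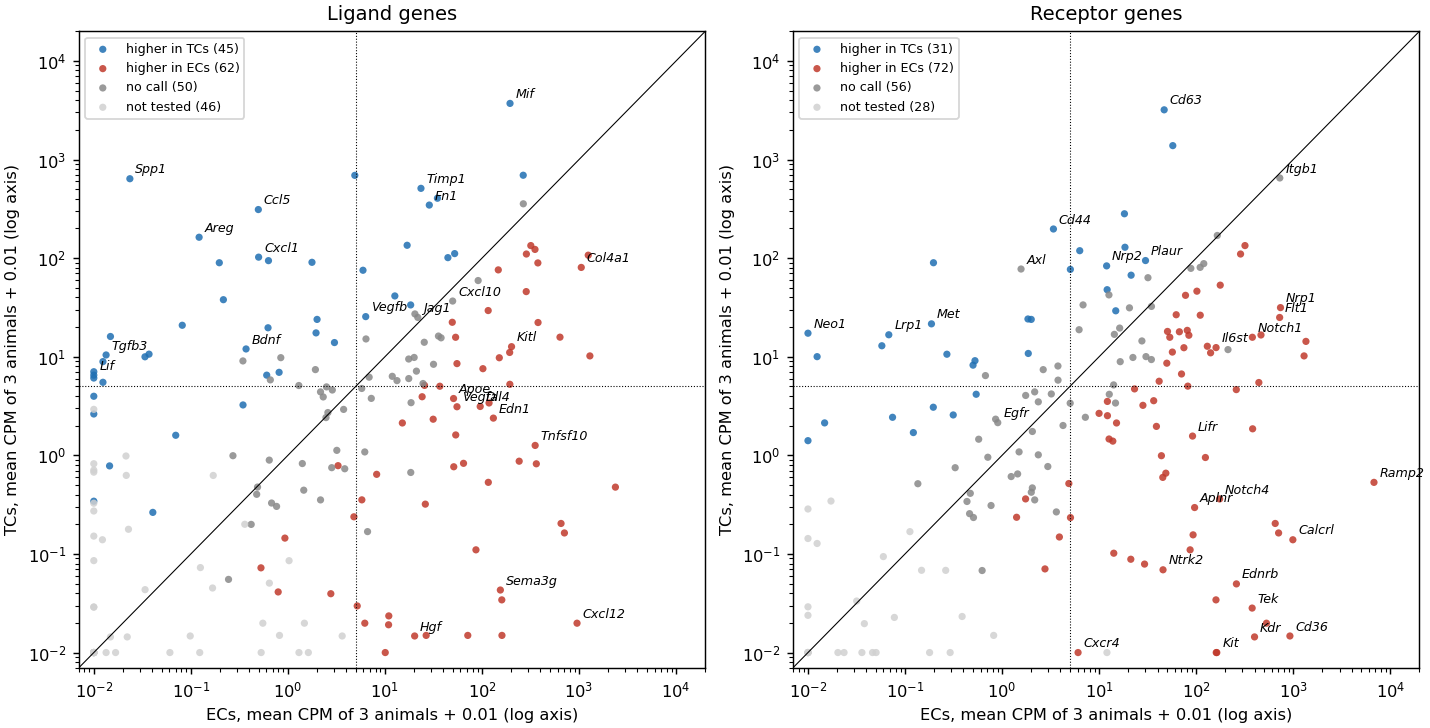
Mean level of each ligand gene (left) and receptor gene (right) in ECs (x axis) and TCs (y axis), in CPM + 0.01 on log axes, 1 point for each gene, colored by its call in edgeR. Dotted lines mark 5 CPM and the diagonal equal levels. Kdr, Kit and Cxcl12 lie at the lower right, Spp1 and Areg at the upper left, and Itgb1, Jag1 and Cxcl10 near the diagonal.

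A gene was counted as expressed by a cell type when its level was at least 5 CPM and at least 5% of cells held a read in each of the 3 animals. By this rule ECs expressed 72 of the ligands (35.5%) and TCs 73 (36%), 40 of them in both, while ECs expressed 85 of the receptor genes (45.5%) and TCs 69 (36.9%), 46 of them in both. Over all 35256 genes the shares were 20.5% in ECs and 22.7% in TCs. A pair was complete when the sending cell type expressed the ligand and the receiving cell type every receptor subunit. From TCs to ECs 37 pairs were complete, using 30 ligands, and from ECs to TCs 45 pairs, using 31 ligands. A total of 16 pairs were complete in both directions and 75.7% of the list in neither. Most complete pairs were not particular to the crossing between cell types: 24 of the 37 were also complete within TCs, and 26 of the 45 within ECs. Only 5 pairs from TCs to ECs and 8 from ECs to TCs were complete in neither cell type alone. Of the ligands expressed by TCs, 43 of 73 had no complete receptor on ECs in this list, and of those expressed by ECs, 41 of 72 had none on TCs.

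**Figure D2:**
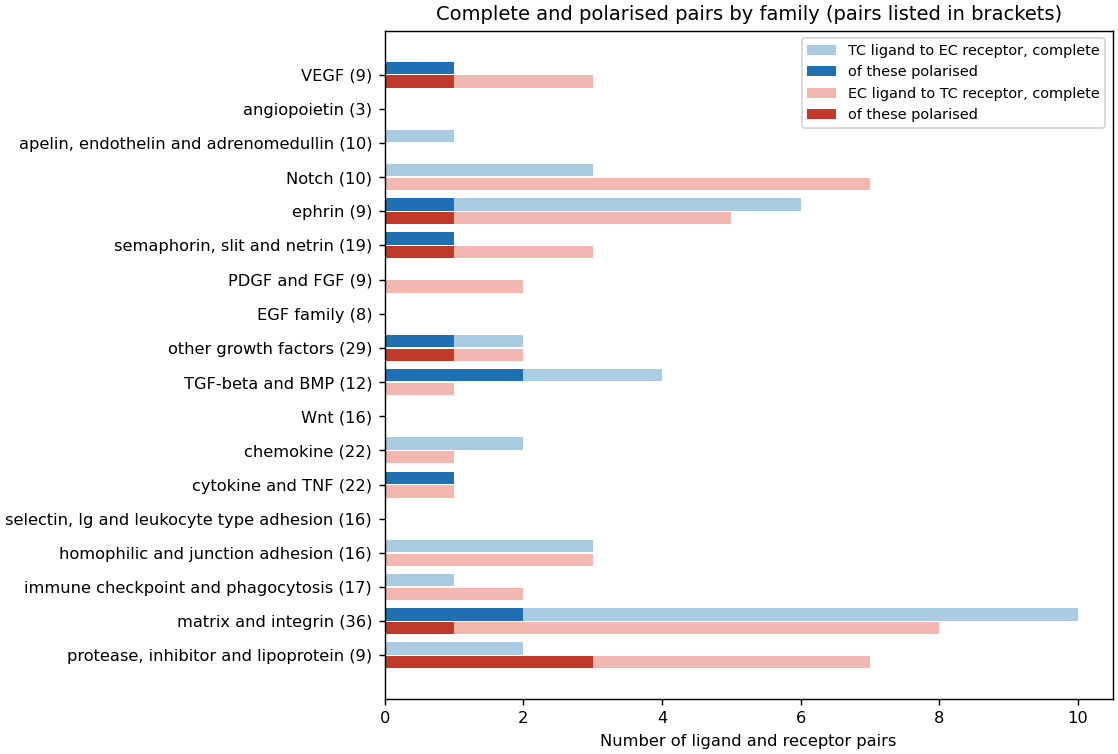
Number of complete pairs (x axis) in each of the 18 families (y axis), blue from TCs to ECs and red from ECs to TCs, with the polarised pairs (ligand and receptor called on opposite sides) in the darker shade and the pairs listed for the family in brackets. The matrix and integrin family, the longest list at 36 pairs, held the most in both directions, 10 and 8. The angiopoietin, EGF, Wnt and selectin families held none.

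The VEGF family, which drives vessel growth through endothelial receptor kinases, had 4 of its 5 receptor genes higher in ECs and 1 in TCs, with 1 of 4 ligands tested higher in each cell type, beside 23.2% of all genes higher in ECs and 19.8% in TCs. With mean log10 values 3 receptors were higher in ECs and 1 in TCs, and 1 ligand was higher in ECs and 3 in TCs, beside 11.8 and 75.3% of all genes. Vegfa, the main vascular growth factor, stood at 48.98, 72.2 and 44.5 CPM in ECs of m5, m6 and m7 and at 7.02, 1.24 and 1.04 CPM in TCs (log2 difference -4.09 ± 0.85 SE, edgeR adjusted p = 0.00931). All 3 EC libraries lay above all 3 TC libraries. The ECs of uninjected mice held 16.3 to 57.2 CPM and cultured TCs 2.91 CPM. Its signaling receptor Kdr stood at 462.6, 366.03 and 370.1 CPM in ECs and at 1 read in all TCs, a ratio of 85500 with a 95% counting interval of 15346 to 3377100. Flt1, which binds VEGF-A and VEGF-B, stood at 795.9, 722.8 and 656.6 CPM in ECs and at 30.9, 22.02 and 22.1 CPM in TCs (log2 difference -4.80 ± 0.23, edgeR adjusted p = 5.11e-05). Flt1 was thus low but present in TCs: 40.9 to 45.6% of TCs held a read, and 34.4 to 37.5% after each cell was thinned to 100000 reads, against 79.9 to 88.1% and 65.5 to 78.8% of ECs. The co-receptor Nrp1 was also higher in ECs (log2 difference -4.49 ± 0.33), as was Flt4, the receptor for VEGF-C (log2 difference -9.21 ± 1.37). Nrp2, the co-receptor for VEGF and class 3 semaphorins, ran the other way, at 24.6, 1.55 and 9.73 CPM in ECs and 103.6, 73.8 and 72.9 CPM in TCs (log2 difference 2.87 ± 0.87, edgeR adjusted p = 0.0356). This call was lost when the ECs of m7 or any TC library was left out, with adjusted p of 0.084 to 0.099. The TC ligand was Vegfb, at 19.1, 30.9 and 26.5 CPM in TCs and 7.75, 6.54 and 4.69 CPM in ECs (log2 difference 2.07 ± 0.40, edgeR adjusted p = 0.00735). With housekeeping library sizes its difference was 1.05 and its adjusted p 0.16. Vegfb to Flt1 was the only complete VEGF pair from TCs to ECs, while Vegfa from ECs met Flt1, Nrp1 and Nrp2 on TCs.

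Both angiopoietin receptors tested were higher in ECs, as were 5 of the 7 receptors tested of the apelin, endothelin and adrenomedullin group (beside 23.2% of all genes), and none was higher in TCs (beside 19.8%). Tek, the angiopoietin receptor, stood at 406, 290.8 and 435.9 CPM in ECs and at 4 reads in all TCs, and its partner Tie1 at 368.4, 460.1 and 499.1 CPM against 6.67, 3.56 and 6.17 CPM (log2 difference -6.28 ± 0.35, edgeR adjusted p = 6.91e-05). Angpt2, which antagonises Tek in many settings, stood at 33.4, 19.6 and 19.5 CPM in ECs and 2.83, 4.72 and 4.21 CPM in TCs (log2 difference -2.56 ± 0.45, edgeR adjusted p = 0.00498), a difference of 0.085 with mean log10 values. Calcrl and Ramp2, which together form the adrenomedullin receptor, were at 840.3 to 1166 and 4805 to 7883 CPM in ECs and below 0.83 CPM in TCs. Their ligand Adm was below 6.3 CPM throughout and did not pass the test (edgeR adjusted p = 0.29), and 1 cell held 95.3% of its reads in an EC library. Aplnr, the apelin receptor, stood at 79.97, 124.8 and 84.4 CPM in ECs and was read in TCs of m7 alone, at 0.857 CPM. The endothelin receptor Ednrb stood at 315.5, 246.9 and 217.3 CPM in ECs and at 8 reads in all TCs, and the ligand Edn1 was also an EC transcript (104.8, 85.1 and 203.2 CPM against 0.524, 0.621 and 5.98 CPM). Apelin itself was read in both cell types (Apln at 18.99, 13.5 and 20.2 CPM in ECs and 7.51, 9.83 and 11.1 CPM in TCs, edgeR adjusted p = 0.12), and Apln to Aplnr was the only complete pair of this group from TCs to ECs, and was not complete with intravascular TCs alone. The Apln call depended on the scale: it was higher in TCs with mean log10 values (difference 1.03, limma adjusted p = 5.68e-05) and higher in ECs with housekeeping library sizes (difference -1.73, edgeR adjusted p = 0.0204).

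Notch signaling needs contact between a ligand on one cell and a receptor on the next, and in vessels Dll4 and Jag1 set which ECs sprout. Of the 7 Notch genes tested, 5 were higher in ECs (beside 23.2% of all genes) and none in TCs (beside 19.8%), and with mean log10 values 4 were higher in ECs and 2 in TCs (beside 11.8 and 75.3%). Dll4 stood at 88.9, 87.2 and 111.4 CPM in ECs and 2.68, 1.81 and 4.87 CPM in TCs (log2 difference -4.88 ± 0.46, edgeR adjusted p = 0.000395), and Jag2 at 64.4, 217.5 and 72.8 CPM against 2.92, 3.46 and 3.78 CPM. Dll1 was higher in ECs as well (log2 difference -2.81 ± 0.61), a difference of 0.22 with mean log10 values. The receptor Notch4, an EC-restricted member, stood at 177.9, 142.4 and 203.1 CPM in ECs and 0.227 to 0.576 CPM in TCs (log2 difference -8.90 ± 0.53, edgeR adjusted p = 7.65e-05). Notch1 stood at 348.4, 342.3 and 447.8 CPM in ECs and at 14.6, 14.8 and 17.9 CPM in TCs, low but read in 26.8 to 34.2% of TCs (22.9 to 26.2% after thinning). Jag1 and Notch2 did not pass the test. Jag1 stood at 33.5, 20.7 and 11.2 CPM in ECs and 25.3, 22.7 and 27.1 CPM in TCs (edgeR adjusted p = 0.65; difference -0.74 with housekeeping library sizes against 0.26), and cultured TCs held 6.03 CPM. Notch2 stood at 5.95, 26.2 and 5.72 CPM in ECs and 49.8, 36.8 and 40.5 CPM in TCs, with no overlap (log2 difference 1.81 ± 0.65, edgeR adjusted p = 0.059). Without the ECs of m6, where the Notch2 level was highest, its difference was 2.90 and its adjusted p 0.0014. From TCs to ECs the 3 complete pairs all used Jag1, and from ECs to TCs 7 pairs joined Dll1, Dll4, Jag1 and Jag2 to Notch1 or Notch2.

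Ephrins and their Eph receptors, which sort cells at borders between arteries and veins, gave 6 complete pairs from TCs to ECs and 5 from ECs to TCs. Of 10 genes tested, 2 were higher in TCs and 5 in ECs (beside 19.8 and 23.2% of all genes), and with mean log10 values 3 and 3 (beside 75.3 and 11.8% of all genes). Efna5 was a TC ligand, at 7.82, 9.96 and 8.96 CPM in TCs and at 1 read in all ECs, a ratio of 3416 with a counting interval of 613.1 to 134910, and its pair was not complete with extravascular TCs alone. Its receptor Epha4 stood at 15.9, 25.2 and 43.8 CPM in ECs and 5.18, 1.97 and 2.47 CPM in TCs (log2 difference -3.08 ± 0.61, edgeR adjusted p = 0.00769). The 2 groups of libraries did not overlap for either gene. Efna1, an ephrin induced in inflamed endothelium, stood at 483.1, 259.03 and 387.6 CPM in ECs and 76.2, 95.6 and 96.5 CPM in TCs (log2 difference -2.01 ± 0.27, edgeR adjusted p = 0.00182). Its receptor Epha2 ran the other way, at 15.7, 10.97 and 17.8 CPM in ECs and 27.9, 33.1 and 26.7 CPM in TCs (log2 difference 1.04 ± 0.34, edgeR adjusted p = 0.043), and lost its call with the animal as a replicate block (adjusted p = 0.12) and without the ECs of m5 (0.064) or any TC library (0.11 to 0.16). With housekeeping library sizes the Epha2 difference was 0.16 (adjusted p = 0.77). Efnb2 and Ephb4, the arterial ligand and venous receptor, were both higher in ECs (log2 differences -3.69 ± 0.31 and -2.54 ± 0.27) and both expressed by TCs at 5.76 to 9.88 and 10.1 to 13.7 CPM.

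Semaphorins, slits and netrins were first known as axon guidance cues and also guide vessels. Of 28 genes tested, 5 were higher in TCs and 14 in ECs (beside 19.8 and 23.2% of all genes), and with mean log10 values 9 and 10 (beside 75.3 and 11.8% of all genes). Sema3g, an EC semaphorin, stood at 90.3, 254.1 and 119.6 CPM in ECs and at 7 reads in all TCs, while its receptor Nrp2 was higher in TCs as described above. Robo4, a roundabout receptor of endothelium, stood at 122.6, 196.7 and 163.8 CPM in ECs and had no read in TCs (at least 11484-fold higher in ECs, against a floor of 3 reads over the TC group). The ligands Flrt3 and Sema3e were higher in TCs, and Sema3e stayed below the limit of expression, at 1.77 to 4.58 CPM, and turned direction with centred log10 values. Flrt3 stood at 9.76, 20.96 and 17.4 CPM in TCs and 2 reads in all ECs, a ratio of 3071 with a counting interval of 850.2 to 25360. Cultured TCs held less, at 3.47 CPM. Its receptor Unc5b stood at 113.9, 127.5 and 89.2 CPM in ECs and 19.4, 35.7 and 23.98 CPM in TCs (log2 difference -2.0 ± 0.32, edgeR adjusted p = 0.00321), and its difference was 0.93 with mean log10 values. Flrt3 overlaps Macrod2, and the library protocol did not mark strand. Neo1, the receptor for Rgmb, was read in TCs alone, at 16.96, 17.6 and 17.4 CPM with no read in 941 ECs (at least 2211-fold higher in TCs). Rgmb to Neo1 was complete from ECs to TCs, although Rgmb itself did not pass the test (edgeR adjusted p = 0.083) and its direction turned with mean log10 values.

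PDGF and FGF ligands were divided between the cell types. Pdgfa, a mesenchymal growth factor, stood at 130.5, 142.5 and 132.05 CPM in TCs and 9.63, 17.6 and 23.5 CPM in ECs (log2 difference 3.06 ± 0.37, edgeR adjusted p = 0.00113). Pdgfb, which recruits pericytes, stood at 122.4, 181.5 and 148.5 CPM in ECs and 8.44, 13.4 and 7.40 CPM in TCs (log2 difference -3.89 ± 0.35, edgeR adjusted p = 0.00031). Pdgfrb, the receptor of Pdgfb, had no read in TCs. Whether Pdgfa met a receptor in ECs could not be read, because the authors removed ECs that expressed Pdgfra. Fgf1 stood at 30.4, 112.9 and 50.3 CPM in ECs and 0.561 to 1.18 CPM in TCs (log2 difference -6.23 ± 0.68, edgeR adjusted p = 0.000722), and its receptor Fgfr2 at 0.197, 3.02 and 17.2 CPM in ECs and 29.7, 38.1 and 32.8 CPM in TCs. The Fgfr2 libraries did not overlap, but the EC values were widely spread (edgeR adjusted p = 0.17), and without the ECs of m7, the highest of the EC libraries, the log2 difference was 4.44 with an adjusted p of 0.034. Fgf1 overlaps Arhgap26, and the annotated span of Fgfr2 overlaps 33 genes on the opposite strand and 36 on its own.

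TCs carried strong messages for EGF family ligands, and none of the listed pairs of this family was complete towards ECs. Hbegf stood at 448.2, 397.7 and 369.1 CPM in TCs and 28.2, 22.4 and 53.6 CPM in ECs (log2 difference 3.60 ± 0.38, edgeR adjusted p = 0.000587). Areg stood at 169.4, 145.4 and 173.9 CPM in TCs and was read in 1 EC alone (33 reads). In culture these genes stood at 184.5 and 51.4 CPM. Btc (whose direction turned with centred log10 values) and Nrg1 were higher in TCs too, so that 4 of 6 ligands tested were higher in TCs and none in ECs (beside 19.8 and 23.2% of all genes). With mean log10 values 4 ligands were higher in TCs and 0 in ECs (beside 75.3 and 11.8% of all genes). With housekeeping library sizes the Btc call was lost (adjusted p = 0.066). Egfr, listed as a receptor of Hbegf, Areg and Btc, stood at 1.41, 0.246 and 1.03 CPM in ECs and 3.70, 1.84 and 0.871 CPM in TCs (edgeR adjusted p = 0.26). It lay below the limit of expression in both, and its direction turned with centred log10 values. Erbb2 was read at 22.3 to 35.7 CPM in ECs and 13.01 to 16.6 CPM in TCs (its direction turned with mean log10 values), and its partner Erbb3 at 3.73 CPM at most (its direction turned with housekeeping library sizes).

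Among other growth factors, Hgf and its receptor Met were placed on opposite sides. Hgf, a scatter factor for epithelial cells, stood at 11.7, 26.9 and 22.2 CPM in ECs and at 1 read in all TCs, a ratio of 4329 with a counting interval of 776.9 to 170970. Day 0 ECs held 9.18 to 26.6 CPM. Met stood at 32.8, 14.4 and 17.4 CPM in TCs and at 0.00681, 0.518 and 0.00726 CPM in ECs (log2 difference 7.01 ± 1.76, edgeR adjusted p = 0.0185). Met libraries did not overlap, and 44.97 to 50.96% of TCs held a read (32.5 to 37.5% after thinning) against 0.299 to 1.02% of ECs (0 to 0.388% after thinning). Hgf to Met was not complete after thinning. Without the TCs of m5 or m7 the adjusted p was 0.060 or 0.053. Pros1, a ligand of the TAM receptors that clear dying cells, was an EC gene (37.97, 15.7 and 24.5 CPM against 0.142 to 0.581 CPM, log2 difference -6.32 ± 0.80, edgeR adjusted p = 0.00133). The TAM receptor Axl, of which Gas6 is the better known ligand, was listed as its partner. Axl stood at 73.4, 84.9 and 74.4 CPM in TCs and 0, 4.67 and 0.00726 CPM in ECs, where 1 cell held 93.9% of the reads of m6. The 3 libraries of each type did not overlap, yet the adjusted p was 0.073, against 0.045 with the animal as a replicate block and 0.00016 without the ECs of m6.

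Kit, the stem cell factor receptor that marks general capillary ECs, stood at 174.2, 134.8 and 180.5 CPM in ECs and had no read in TCs (at least 11637-fold higher in ECs). Its ligand Kitl was expressed by both, at 226.3, 206.4 and 172.4 CPM in ECs and 14.04, 12.1 and 11.8 CPM in TCs (log2 difference -3.93 ± 0.24, edgeR adjusted p = 7.94e-05). The pair was therefore complete from TCs to ECs and within ECs. Bdnf, a neurotrophin, stood at 9.80, 11.7 and 14.4 CPM in TCs and 0.987, 0 and 0.0944 CPM in ECs (log2 difference 5.10 ± 1.65, edgeR adjusted p = 0.042). The Bdnf call was lost with the animal as a replicate block (adjusted p = 0.053) and on leaving out the ECs of m7 or any TC library (0.094 to 0.11), with housekeeping library sizes (0.051) and with no filter on low counts (0.059), and its direction turned with centred log10 values. Its receptor Ntrk2 stood at 28.7, 58.2 and 49.7 CPM in ECs and 0.0270 to 0.0855 CPM in TCs (log2 difference -9.56 ± 0.66, edgeR adjusted p = 0.000122).

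The TGF-beta family regulates growth arrest, matrix production and vessel stability, and TCs supplied 4 complete pairs to ECs against 1 in return. At a limit of 10 CPM and 10% of cells these were 0 and 1, and the Tgfb2 pair also dropped out in either gate taken alone and without TMM. Tgfb3 stood at 10.6, 8.13 and 12.5 CPM in TCs and at 1 read in all ECs, a ratio of 3988 with a counting interval of 715.8 to 157530. Cultured TCs held 5.88 CPM, and Tgfb3 overlaps Ttll5. Inhba, the activin A subunit, stood at 78.2, 73.1 and 74.8 CPM in TCs and 2.93, 10.5 and 4.41 CPM in ECs (log2 difference 3.73 ± 0.53, edgeR adjusted p = 0.0021), and at 27.03 CPM in culture. The Inhba pair was not complete after thinning or without ECs that hold platelet reads. Neither ligand overlapped between the cell types. Tgfb1, the member made by most cells, stood at 23.9, 18.4 and 17.7 CPM in ECs and 9.999, 11.5 and 7.94 CPM in TCs (edgeR adjusted p = 0.071), and its difference was 1.15 with mean log10 values. Of the receptors, Tgfbr1 was higher in ECs at 54.2, 59.9 and 37.9 CPM against 22.4, 17.6 and 14.1 CPM (log2 difference -1.43 ± 0.33, edgeR adjusted p = 0.0136), and was higher in TCs by 1.55 with mean log10 values. Leaving out the TCs of m6 or m7 gave Tgfbr1 an adjusted p of 0.066 or 0.067. Tgfbr2 stood at 56.6, 11.3 and 35.9 CPM in ECs and 30.97, 32.6 and 33.5 CPM in TCs, which overlapped (edgeR adjusted p = 0.96), and was higher in TCs by 2.67 and 1.01 on the log10 scales. The activin receptors Acvr1b and Acvr2a were at 9.10 to 22.9 and 9.46 to 10.5 CPM in ECs and 0.428 to 2.90 and 2.11 to 2.95 CPM in TCs, and with the animal as a replicate block their adjusted p were 0.058 and 0.071. The Acvr1b call was also lost without the ECs of m7 or the TCs of m6 or m7 (0.057 to 0.096), and the Acvr2a call without any TC library (0.073 to 0.076). The Acvr2a difference was 0.37 with mean log10 values. Bmp6 and the ALK1 receptor Acvrl1, part of the BMP pathway of quiescent vessels, were EC genes with 1 and 2 reads in all TCs. Over the family 3 genes were higher in TCs and 7 in ECs of 17 tested (beside 19.8 and 23.2% of all genes), and with mean log10 values 11 and 4 (beside 75.3 and 11.8% of all genes).

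No Wnt pair was complete in either direction at the limit of 5 CPM and 5% of cells. Wnt4 to the frizzled receptor Fzd6 was complete from ECs to TCs after thinning and without m7, and in both directions at 1 CPM and 1% of cells, where Wnt7b to Fzd1 and Lrp6 was also complete from TCs to ECs. Wnt7b stood at 45.9, 34.8 and 32.9 CPM in TCs and was read in 1 EC library alone, at 0.619 CPM, and Wnt7a was also a TC gene (9.56, 5.76 and 14.6 CPM, against 53.8 CPM in culture). The levels did not overlap between the cell types. ECs carried Fzd4, a frizzled receptor of vascular ECs, at 49.8, 49.3 and 47.01 CPM against 0.608 to 0.723 CPM in TCs (log2 difference -6.16 ± 0.35, edgeR adjusted p = 7.05e-05). Wnt4 stood at 20.5, 40.9 and 15.4 CPM in ECs and 7.81, 3.94 and 3.58 CPM in TCs (log2 difference -2.26 ± 0.56, edgeR adjusted p = 0.0176), with adjusted p of 0.080 and 0.078 when the TCs of m6 or m7 were left out. Over the family 3 genes were higher in TCs and 5 in ECs of 16 tested (beside 19.8 and 23.2% of all genes), and with mean log10 values 6 and 3 (beside 75.3 and 11.8% of all genes).

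Chemokines guide leukocytes, and 7 of the 12 ligands tested were higher in TCs and 2 in ECs (beside 19.8 and 23.2% of all genes). With mean log10 values 6 ligands were higher in TCs and 1 in ECs (beside 75.3 and 11.8% of all genes). Of the 10 receptors tested, 3 were higher in TCs and 3 in ECs. Ccl5 stood at 240, 233.7 and 459.2 CPM in TCs and 1.12, 0 and 0.341 CPM in ECs (log2 difference 9.36 ± 1.48, edgeR adjusted p = 0.00324). Cultured TCs held 7.82 CPM. Up to 49.96% of the Ccl5 reads of a TC library came from 1 cell, and 26.9% of TCs on average held a read. Cxcl1, a neutrophil attractant, stood at 93.1, 62.3 and 151.6 CPM in TCs and 0.0145 to 1.40 CPM in ECs (log2 difference 7.75 ± 1.68, edgeR adjusted p = 0.0112). Cxcl1 was counted as complete towards ECs through Cxcr2, which did not pass the test as higher in ECs. Cxcr2 was higher in TCs, at 77.8, 63.8 and 59.8 CPM against 17.5, 31.5 and 15.03 CPM (log2 difference 1.71 ± 0.36, edgeR adjusted p = 0.00968), and at 86.3 CPM in culture. With housekeeping library sizes the Cxcr2 difference was 0.58 (adjusted p = 0.46).

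The axis of Cxcl12 and Cxcr4, which retains many cell types in tissue, was not complete at day 1.5. Cxcl12 was among the strongest EC ligand messages, at 673.4, 1452 and 735.9 CPM, with 2 reads in all TCs. Cxcr4 had no read in 465 TCs and none in cultured TCs, and stood at 14.5, 2.88 and 0.835 CPM in ECs. The second receptor, Ackr3, stood at 21.9, 41.4 and 46.2 CPM in ECs and 1.53, 4.92 and 4.27 CPM in TCs (log2 difference -3.29 ± 0.58, edgeR adjusted p = 0.0052). Cxcl10, an interferon-induced chemokine, did not pass the test, at 73.01, 22.1 and 54.4 CPM in ECs and 54.5, 33.2 and 22.4 CPM in TCs (edgeR adjusted p = 0.57), and was higher in TCs by 0.98 with mean log10 values. It was read in 36 ECs, and 1 cell held up to 93.6% of the reads of an EC library, while day 0 ECs held 0.0107 CPM at most. Its receptor Cxcr3 was a TC gene, at 6.18, 13.3 and 10.6 CPM with 1 read in all ECs, a ratio of 3835 with a counting interval of 688.3 to 151470. Cxcl10 overlaps Art3.

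Mif, a cytokine that signals through Cd74 and Cd44, was abundant in TCs, at 4026, 3635 and 3464 CPM against 197.8, 271.5 and 114.2 CPM in ECs (log2 difference 4.32 ± 0.34, edgeR adjusted p = 0.000185). The receptor subunit Cd44, an adhesion molecule for hyaluronan, was also a TC gene, at 170.5, 214.7 and 207.3 CPM against 3.15, 2.00 and 4.98 CPM (log2 difference 5.93 ± 0.43, edgeR adjusted p = 0.000148). In culture Cd44 stood at 46.8 CPM. The pair was therefore complete from ECs to TCs and within TCs, and not from TCs to ECs, but it was not complete with intravascular or extravascular TCs alone. Cd74, the MHC class II invariant chain, stood at 0.545, 451.4 and 186.6 CPM in ECs of m5, m6 and m7 and at 7.82, 10.6 and 16.97 CPM in TCs. The ECs of m5 lay below every TC library and below the 147.1 to 726.3 CPM of day 0 ECs. Cd74 did not pass the test (edgeR adjusted p = 0.086), and without the ECs of m5 its log2 difference was -4.70 with an adjusted p of 0.0023.

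Of 35 cytokine and TNF family genes tested, 7 were higher in TCs and 15 in ECs (beside 19.8 and 23.2% of all genes), and with mean log10 values 14 and 7 (beside 75.3 and 11.8% of all genes). Lif, an IL-6 family cytokine, was read in TCs alone, at 6.25, 7.29 and 5.95 CPM with no read in ECs (at least 829.8-fold higher in TCs). Centring log10 values subtracts the mean of each library, so a gene absent from ECs can show a difference below 0. With such values the Lif difference was -0.64 although ECs held no read. Its receptor chain Lifr stood at 82.8, 95.05 and 97.5 CPM in ECs and 0.849, 0.521 and 3.31 CPM in TCs (log2 difference -5.82 ± 0.79, edgeR adjusted p = 0.00181), and the shared chain Il6st at 205.2, 132.1 and 143.8 CPM against 14.4, 12.1 and 10.6 CPM (log2 difference -3.63 ± 0.29, edgeR adjusted p = 0.000204). The Lif level was just over the limit of 5 CPM, and 15.4 to 19.7% of TCs held a read (9.27 to 12.5% after thinning). The Lif pair was not complete after thinning, nor with intravascular or extravascular TCs alone. Tnfsf10, the death ligand TRAIL, stood at 396.4, 334.3 and 328.6 CPM in ECs and 1.18, 1.69 and 0.874 CPM in TCs (log2 difference -8.08 ± 0.37, edgeR adjusted p = 4.08e-05). Its receptor Tnfrsf10b stood at 16.9, 14.99 and 18.7 CPM in TCs and 15.3, 18.998 and 8.71 CPM in ECs, which overlapped (edgeR adjusted p = 0.58). The Tnfrsf10b difference was -0.81 with housekeeping library sizes and -0.42 with centred log10 values, against 0.29. Tnfrsf12a, the TWEAK receptor, was a strong TC gene at 1454, 1422 and 1276 CPM against 59.3, 83.2 and 29.9 CPM in ECs, but its ligand Tnfsf12 did not reach the limit in ECs (1.67, 13.5 and 3.35 CPM).

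No selectin or leukocyte type adhesion pair was complete. Sele, the selectin of inflamed endothelium, stood at 0.150, 0 and 10.7 CPM in ECs, and 1 cell held up to 95.99% of the reads of a library. Selp stood at 7.18, 11.3 and 14.4 CPM, again with up to 99.5% of a library's reads in 1 cell. Icam1 and Icam2, ligands of leukocyte integrins, were EC genes at 160.8 to 215.4 and 1884 to 2719 CPM. None of their integrins had all its subunits expressed by TCs, although the shared subunit Itgb2 was called higher in TCs. Vcam1 did not pass the test (33.1, 58.4 and 15.3 CPM in ECs against 14.8, 16.6 and 17.2 CPM in TCs, edgeR adjusted p = 0.12; higher in TCs by 1.46 with mean log10 values), and its integrin Itga4 reached 0.547 CPM at most in TCs. Cd24a, a selectin ligand, was a TC gene (95.5, 161.1 and 130.2 CPM against 10.6, 25.2 and 19.5 CPM, log2 difference 2.87 ± 0.40, edgeR adjusted p = 0.00197).

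Junction proteins bind their own kind across cells, and 3 such pairs were complete in both directions. F11r, a tight junction protein, stood at 301.3, 132.4 and 426.6 CPM in ECs and 114.6, 100.9 and 114.7 CPM in TCs (log2 difference -1.32 ± 0.40, edgeR adjusted p = 0.036; adjusted p = 0.064 with the animal as a replicate block), and its difference was 0.84 with mean log10 values. Cd99l2, which acts in leukocyte passage, stood at 31.96, 94.99 and 33.5 CPM in ECs and 15.1, 13.8 and 18.3 CPM in TCs (edgeR adjusted p = 0.030; 0.082 with the animal as a replicate block; higher in TCs by 1.40 with mean log10 values). Pecam1 (CD31) was the protein on which ECs were sorted, so its EC excess is no finding. It stood at 1189, 1271 and 1421 CPM in ECs and 10.5, 9.42 and 10.6 CPM in TCs. Its low TC level was spread over 81.2 to 88.1% of TCs (50.3 to 58.9% after thinning) and stood at 11.3 CPM in culture, while Cdh5, Calcrl and Ramp2 were near 0 in the same cells. Cdh5, the VE-cadherin of vessels, and Cdh1, the E-cadherin of epithelia, were read mostly in their own cell type, at 644.1 to 805.3 CPM against 0.225 CPM at most, and at 78.4 to 108.7 CPM against 0.559 CPM at most.

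Among checkpoint and phagocytosis genes, Cd47, a signal against phagocytosis, was expressed by both, at 364.1, 255.7 and 335.6 CPM in ECs and 108.4, 162.2 and 131.7 CPM in TCs (log2 difference -1.19 ± 0.24, edgeR adjusted p = 0.00826; difference 1.31 with mean log10 values). Its receptor Sirpa stood at 16.3, 87.4 and 27.8 CPM in ECs and 0.724 to 1.23 CPM in TCs (log2 difference -5.42 ± 0.77, edgeR adjusted p = 0.00216). Cd47 to Sirpa was therefore complete towards ECs, and Cd47 was not higher on the sending side. Neither this pair nor Pvr to Tigit was complete after thinning. Pvr to Tigit was complete towards TCs: Tigit, known from T cells, stood at 16.1, 29.8 and 26.5 CPM in TCs and 2.19, 2.15 and 1.18 CPM in ECs (log2 difference 3.78 ± 0.50, edgeR adjusted p = 0.00166), and at 70.6 CPM in culture. The 11 immune markers, Cd3e among them, summed to 3.34 to 9.08 CPM in the same TC libraries. Anxa1, a mediator that ends inflammation, was higher in TCs, at 452.3, 836.3 and 784.1 CPM against 1.67, 3.10 and 9.88 CPM (log2 difference 7.20 ± 0.82, edgeR adjusted p = 0.000853), with no expressed formyl peptide receptor on ECs.

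Matrix proteins and integrins, the longest list at 36 pairs, gave the most complete pairs, 10 from TCs to ECs and 8 back. By share of listed pairs other families stood higher, such as ephrins towards ECs (6 of 9). Towards TCs these included the Notch family (7 of 10) and the protease and lipoprotein family (7 of 9). Over the family 12 genes were higher in TCs and 16 in ECs of 37 tested (beside 19.8 and 23.2% of all genes), with 9 and 19 under housekeeping library sizes (beside 9.31 and 34.3%) and 25 and 8 with mean log10 values (beside 75.3 and 11.8%). Fn1 (fibronectin, chr1:71585520-71653200, minus strand, GRCm38) stood at 260.6, 382.98 and 392.3 CPM in TCs and 38.97, 30.8 and 16.1 CPM in ECs (log2 difference 3.65 ± 0.39, edgeR adjusted p = 0.00063). Its integrin Itga5 (chr15:103344286-103366763, minus strand) stood at 37.03, 43.6 and 68.9 CPM in ECs and 7.23, 9.42 and 9.13 CPM in TCs (log2 difference -2.48 ± 0.36, edgeR adjusted p = 0.00244), and the subunit Itgb1 at 584, 919.5 and 678.9 CPM against 648.3, 623 and 679 CPM, which overlapped (edgeR adjusted p = 0.70). The Itgb1 difference was 2.41 with mean log10 values and 0.75 after centring. Neither Fn1 nor Itga5 libraries overlapped. With mean log10 values the Itga5 difference was -0.01. A read was held by 19.5, 18.8 and 28.4% of ECs and 28.7, 29.6 and 32.2% of TCs. Spp1 (osteopontin) was read almost only in TCs, at 364.7, 738.7 and 813.2 CPM against 4 reads in all ECs, and at 644.1 CPM in culture. Its integrins were not expressed by ECs at the limit.

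Col4a1 and Col4a2, the collagen IV chains, stood at 955.3 to 1149 and 1104 to 1374 CPM in ECs and 69.4 to 97.4 and 92.3 to 126.1 CPM in TCs (log2 differences -3.65 ± 0.21 and -3.48 ± 0.20, edgeR adjusted p = 7.05e-05 for each). Day 0 ECs held both at lower levels, 427 to 538.2 and 345.2 to 607.7 CPM. Ddr1, a collagen receptor kinase, stood at 6.67, 11.5 and 13.6 CPM in TCs and 0.0305 to 0.408 CPM in ECs (log2 difference 5.39 ± 1.04, edgeR adjusted p = 0.00717), and Ddr2 at 113.3, 127.4 and 116.3 CPM against 3.76, 12.01 and 3.14 CPM. Col4a1 to Ddr1 was not complete with intravascular TCs alone. Itga1, a collagen integrin, and Bcam, a laminin receptor, belonged to ECs (log2 differences -7.63 ± 0.60 and -6.98 ± 0.42). Hspg2 (perlecan), a matrix proteoglycan, stood at 40.9, 43.5 and 39.6 CPM in TCs and 12.1, 5.83 and 19.98 CPM in ECs (log2 difference 1.77 ± 0.48, edgeR adjusted p = 0.0237), and lost its call without the ECs of m5 (0.058) or any TC library (0.070 to 0.082), and with housekeeping library sizes its difference was 1.02 (0.079). Its receptor Dag1 was the weaker call, with adjusted p of 0.033, of 0.11 with the animal as a replicate block and of 0.091 to 0.13 without any 1 TC library, and its direction turned on both log10 scales. Lama5, a laminin of vessel walls, was expressed by both (155.3, 188.6 and 97.7 CPM in ECs against 84.4, 73.2 and 70.4 CPM in TCs, edgeR adjusted p = 0.040), lost its call with the animal as a replicate block (0.083) or without any 1 of 5 libraries (0.079 without the ECs of m5), and turned direction on both log10 scales. The laminin chain Lamb3 was a TC gene at 82.01 to 103.3 CPM, as was its integrin subunit Itgb4 (42.2, 47.7 and 53.6 CPM against 8.24, 12.7 and 15.3 CPM; difference 1.06 with housekeeping library sizes, adjusted p = 0.11, against 2.05).

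Thbs1, an angiogenesis inhibitor that binds Cd36 and Cd47, was read at 20.6, 0.721 and 0.378 CPM in ECs and 2.85, 2.97 and 5.49 CPM in TCs (edgeR adjusted p = 0.64), and was higher in TCs by 0.65 with mean log10 values. Without the ECs of m5, of which 11.2% held a read against 1.71 and 2.09% in m6 and m7, its log2 difference turned from -0.87 to 2.83 with an adjusted p of 0.029. Cd36, a scavenger receptor of microvessels, stood at 988.8, 605.6 and 1180 CPM in ECs and at 1 read in all TCs.

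In the protease and lipoprotein family 7 genes were higher in TCs and 1 in ECs of 13 tested (beside 19.8 and 23.2% of all genes), with 5 and 3 under housekeeping library sizes (beside 9.31 and 34.3%). With mean log10 values these were 8 and 1 (beside 75.3 and 11.8%). Timp1, an inhibitor of matrix proteases, stood at 493, 515.8 and 522 CPM in TCs and 18.9, 21.6 and 29.95 CPM in ECs (log2 difference 4.50 ± 0.25, edgeR adjusted p = 6.92e-05), against 228.4 CPM in culture and 0.688 CPM at most in day 0 ECs. Its receptor Cd63 was also a TC gene, at 3053, 3207 and 3319 CPM against 28.98, 67.4 and 44.1 CPM (log2 difference 6.15 ± 0.36, edgeR adjusted p = 7.5e-05). Timp1 to Cd63 was therefore complete within TCs as well as towards ECs. Plau (urokinase) and its receptor Plaur were expressed by both cell types, and Plau differed little, at 28.9, 33.7 and 37.9 CPM in TCs against 17.2, 15.5 and 22.6 CPM in ECs (edgeR adjusted p = 0.048; 0.11 with the animal as a replicate block and 0.089 without the ECs of m5), with its direction turned by centred log10 values and a difference of 0.0088 with housekeeping library sizes. Plaur stood at 77.7, 105.7 and 100.1 CPM in TCs and 47.7, 13.9 and 28.6 CPM in ECs (log2 difference 1.71 ± 0.45, edgeR adjusted p = 0.022), and lost its call without the ECs of m7 or any TC library and with housekeeping library sizes (0.11).

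Apoe, the lipid carrier, ran from ECs to the receptors Lrp1 and Lrp8 on TCs. It stood at 69.2, 43.7 and 39.95 CPM in ECs and 1.25, 1.72 and 8.31 CPM in TCs (log2 difference -3.70 ± 0.81, edgeR adjusted p = 0.0115). Lrp1, a broad endocytic receptor, stood at 18.1, 15.8 and 16.2 CPM in TCs and 0, 0.102 and 0.0726 CPM in ECs (log2 difference 8.23 ± 1.29, edgeR adjusted p = 0.00311), and Lrp8 at 9.45, 11.4 and 11.5 CPM against 2.29, 1.33 and 1.94 CPM (log2 difference 2.60 ± 0.49, edgeR adjusted p = 0.00675), the latter with a turned direction on centred log10 values. None of these 3 genes overlapped between the cell types. Lrp1 was the receptor of 4 complete pairs towards TCs, with Apoe, Calr and Plat among the ligands, of which the Plat pair was not complete after thinning.

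A pair was called polarised when it was complete, its ligand passed the test towards the sending cell type and at least 1 receptor subunit towards the receiving one, so the direction of each partner follows from the definition. There were 17 such pairs. From TCs to ECs these were Vegfb to Flt1, Efna5 to Epha4, Flrt3 to Unc5b, Bdnf to Ntrk2, Tgfb3 to Tgfbr1 and Tgfbr2, Inhba to Acvr1b and Acvr2a, Lif to Lifr and Il6st, Hspg2 to Dag1, and Fn1 to Itga5 and Itgb1. From ECs to TCs they included Vegfa and Sema3g to Nrp2, Efna1 to Epha2, Hgf to Met, Col4a1 to Ddr1, and Apoe to Lrp1 and Lrp8. Over 16 other settings, both log10 scales among them, Fn1, Vegfb, Col4a1 and Apoe to Lrp1 kept their place in 15, Apoe to Lrp8 in 14, and Efna5, Flrt3 and Lif in 13. Vegfa held in 12, Inhba and Tgfb3 in 11, Hgf and Sema3g in 10, Efna1 in 9, Bdnf in 8 and Hspg2 in 7. These settings do not cover either gate alone, levels without TMM, ECs without platelet reads or the limit on mitochondrial reads. Some of these pairs were not complete in a gate alone or without ECs that hold platelet reads, as given above. Fn1 lost its place with mean log10 values, where Itga5 was not called, and Flrt3, Tgfb3 and Hspg2 lost theirs on both log10 scales. Efna5, Hgf and Sema3g had no test on the log10 scales and could keep their place in 14 settings at most. With the animal as a replicate block 14 pairs were polarised: Bdnf, Hspg2, Inhba and Efna1 dropped out and Pros1 to Axl was added.

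**Figure D3:**
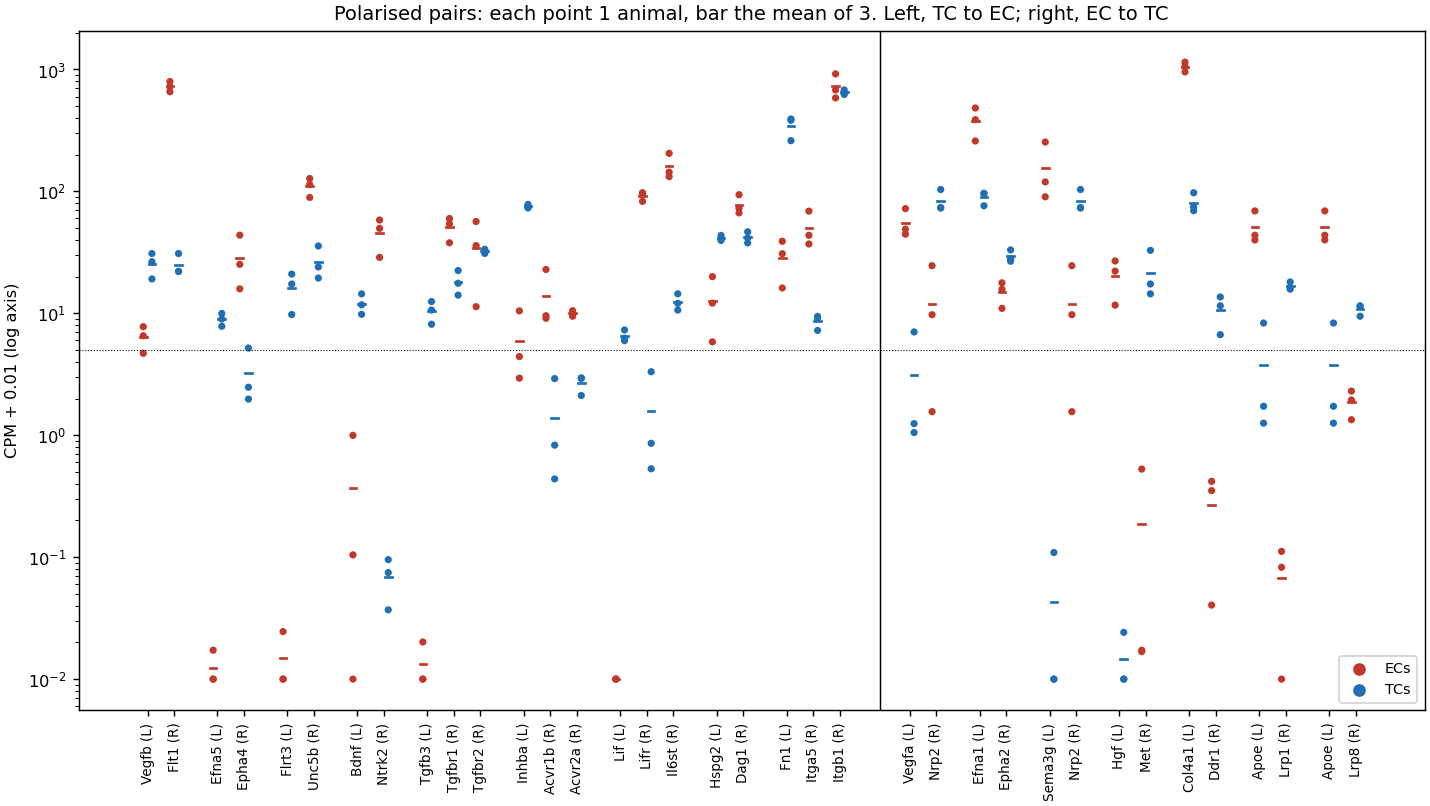
Levels of the ligand (L) and receptor (R) genes of 16 polarised pairs, in CPM + 0.01 on a log axis, ECs in red and TCs in blue, with 1 point for each animal and a bar for the mean of 3. Pairs from TCs to ECs stand to the left of the vertical line and pairs from ECs to TCs to the right, and the dotted line marks 5 CPM. Ligand and receptor lie on opposite sides for each pair, as the definition requires, except for the overlapping subunits Itgb1 and Tgfbr2.

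Levels of the EC partners were also read by capillary type. Day 1.5 ECs were classed with the study's marker lists and score limits as general capillary (gCap; 65.8, 55.6 and 59.4% of the ECs of m5, m6 and m7), alveolar capillary (aCap; 72, 81 and 88 cells), large vessel (20, 13 and 29 cells) or cycling cells (1, 1 and 7), and 14, 35 and 12 stayed unclassified. Of 61 EC genes in complete pairs, 5 are class markers and were left out. Among the 56 described, 20 were higher in gCap than in aCap in every pairing of animals (35.7%), 9 were higher in aCap (16.1%) and 27 overlapped. Over the 7154 genes expressed by ECs that are no class markers, 16.4% were higher in gCap and 5.51% in aCap in the same way. The classes come from the same cells, so these levels are a description without a test.

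Vegfa stood at 68.3 to 107.9 CPM in gCap and 0.799 to 9.44 CPM in aCap cells. Also higher in gCap than in aCap were the receptors Ntrk2 (42.5 to 101.4 against 0.445 to 5.46 CPM), Epha4 (17.3 to 67.2 against 0.299 to 2.06 CPM), Itga5 (50.1 to 89.6 against 0.734 to 8.63 CPM) and Notch4, and the Notch ligands Jag1 and Jag2. Large vessel ECs lay below gCap in every animal for Vegfa and Ntrk2. For Epha4, Itga5, Notch4, Jag1 and Jag2 the large vessel levels overlapped those of gCap, so these genes were not particular to gCap. Sirpa, the Cd47 receptor, stood in aCap cells at 64.7 to 294.4 CPM against 0.062 to 0.196 CPM in gCap. Fgf1 stood at 118.4 to 401.7 CPM in aCap and 0.339 to 14.4 CPM in gCap, and Pros1, Plau, Plaur, Itga3, App and Bcam were also higher in aCap. Flt1 was high in both, at 691.5 to 879.1 CPM in gCap and 521.7 to 575.3 CPM in aCap.

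**Figure D4:**
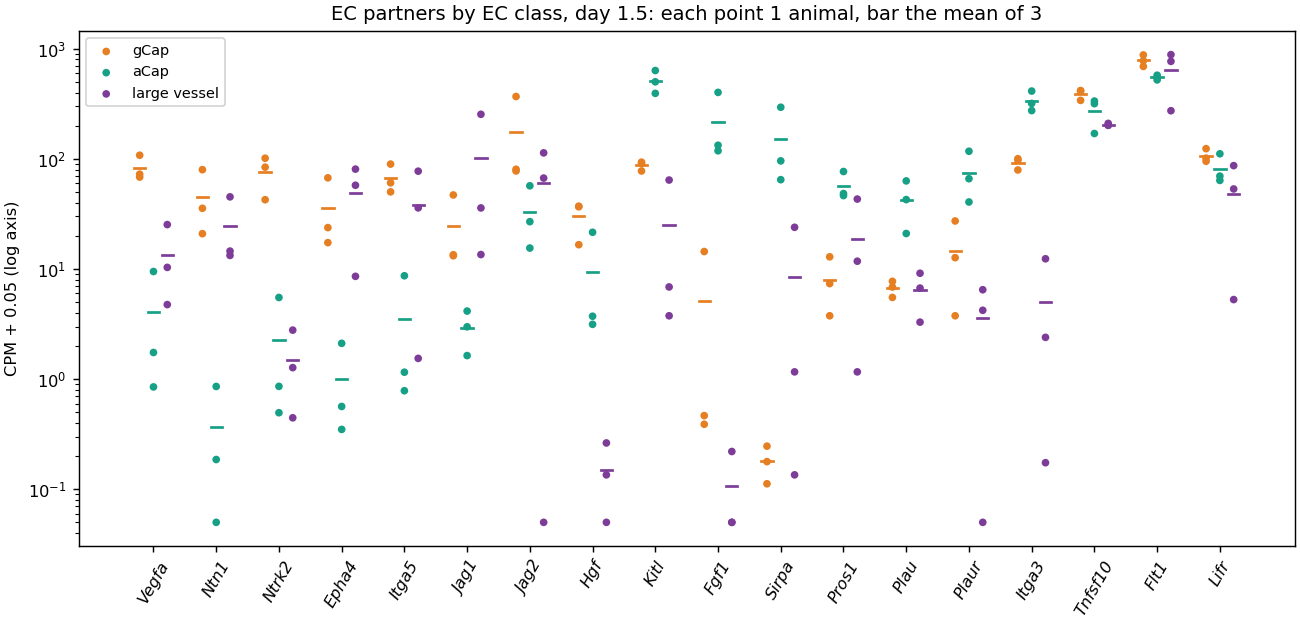
Levels of 18 EC partner genes in gCap, aCap and large vessel ECs, in CPM + 0.05 on a log axis, with 1 point for each animal and class and a bar for the mean of 3. Vegfa, Ntrk2 and Itga5 lie higher in gCap than in aCap and Sirpa, Fgf1 and Pros1 higher in aCap, without overlap.

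Between extravascular and intravascular TCs of the same 3 lungs, 1 of 14641 genes passed the test in edgeR (0.00683%), the predicted gene Gm12715, and 1518 had an unadjusted p under 0.05 (10.4%). The Gm12715 call was lost with the animal as a replicate block and without either gate library of m6 or m7. The count depended on the method: DESeq2 called 1.65% of genes, and limma on mean log10 values 8.54% and after centring 6.92%. None of the pair genes tested passed in edgeR with 3 animals, and 33 had an unadjusted p under 0.05 (13.5%). Of these 33, 63.6% were higher in extravascular TCs, beside 48.7% of all genes at that p. DESeq2 called 6 pair genes (2.765%, beside 1.91% of all genes with an adjusted p), and edgeR with all 4 animals called 1 (0.412%, beside 0.430%). Plaur had the lowest p among them, at 48.7, 65.8 and 61.3 CPM in intravascular and 101.5, 128.4 and 132.2 CPM in extravascular TCs (log2 difference 1.07 ± 0.19, unadjusted p = 0.0003172, edgeR adjusted p = 0.26). Edn1 was read in intravascular TCs alone, at 0.955, 1.33 and 10.5 CPM (edgeR adjusted p = 0.34). Timp1 stood at 498.9, 562 and 586.1 CPM in intravascular and 436.4, 432.8 and 380.8 CPM in extravascular TCs, and Itgb1 at 527.6 to 579 against 644.1 to 707.6 CPM. These libraries did not overlap, and none of the differences passed the correction (edgeR adjusted p = 0.36 for each). Judged by gate, 31 pairs towards ECs were complete in both gates, 2 in intravascular and 2 in extravascular TCs alone, and 39 pairs towards TCs in both, 1 and 3 in either gate alone. Each gate of all animals shared a sequencing lane, which cannot be told apart from the gate.

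**Figure D5:**
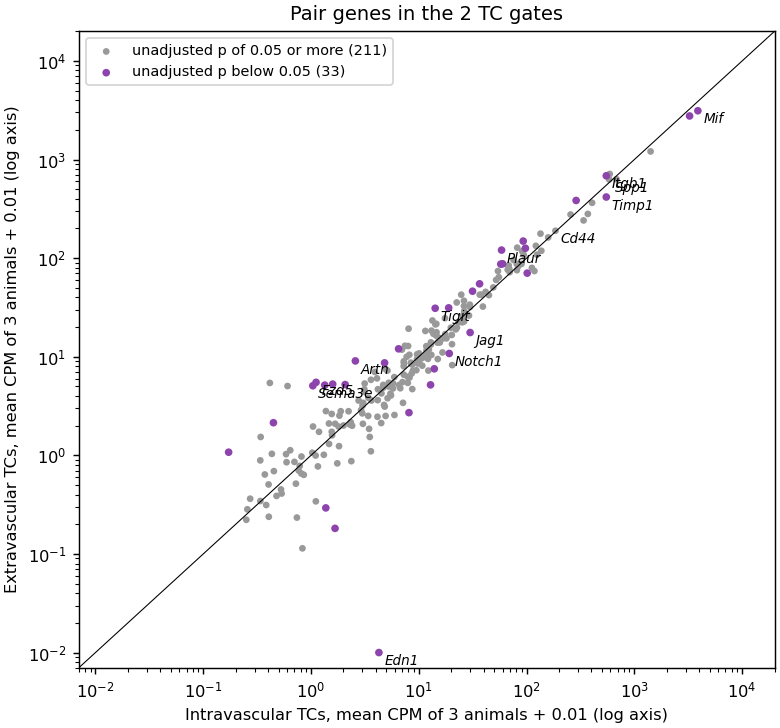
Mean level of each pair gene tested between the gates in intravascular TCs (x axis) and extravascular TCs (y axis), in CPM + 0.01 on log axes, 1 point for each gene, with the 33 genes of unadjusted p under 0.05 in purple. Most genes lie near the diagonal, Plaur and Tigit above it and Timp1 and Edn1 below it.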

How the data were processed

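Single cells sorted from mouse lungs were sequenced with SMART-Seq2, a full-length protocol without molecular identifiers. The authors quantified reads against GRCm38 with Salmon 0.7.2 after bcl2fastq demultiplexing, and deposited estimated counts for each gene and cell, with 35308 genes in the EC and 35299 in the TC tables, of which 35256 were shared. The authors also deposited log10 values, log10 of the count divided by the mean of housekeeping genes, times 10000, plus 1. These were checked against the estimated counts, and 8 of the 11 housekeeping genes were found in the tables. Cells were those kept in the authors' filtered tables. No column of the authors' own comparisons was used.

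The estimated counts of kept cells were summed by animal and cell type and rounded. The 3 EC and 3 TC libraries were compared by edgeR 4.0.16 (R 4.3.3) with TMM scaling, filterByExpr, the quasi-likelihood test and Benjamini-Hochberg adjustment over all genes tested, with no block, and calls at an adjusted p of 0.05. Values with ± are log2 differences with their SE. The n was 3 animals, p-values measure the spread between them, and an exact permutation test of 3 against 3 cannot go below 0.1. Alternatives used DESeq2 1.42.0 and limma 3.58.1. TCs and ECs of 1 animal are paired by origin, and their deviations from the group means correlated at -0.048, -0.028 and 0.024. With the animal as a replicate block 5054 genes passed.

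Counting intervals (95%, Poisson) and floors of 3 reads cover counting error only. The library protocol did not mark strand, so reads of a gene and an overlapping one cannot be told apart. Beside the overlaps given with the results, this holds for Acvr2a, Angpt2, Bmp6, Col4a1 and Col4a2, Ephb4, Erbb2, Itga1, Itga4, Lamb3, Ramp2, Timp1 and Tnfsf12, which overlap other protein-coding genes. Genes were named by a rule: in each direction the 10 complete pairs with the largest called ligand difference and the 10 called receptors of complete pairs with the largest difference, up to 10 pair genes called between the gates, the cell type markers, and a listed set of known partners whatever their values. Results that need certain genes are not reported here. Other genes beside them were chosen after their values were seen. The pair list, the marker lists and these rules were chosen with earlier results of these data known. The code was tested on simulated data.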

Additional observations from a re-analysis of the deposited data

Results flagged for a closer look

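Among the levels of 11 genes in the ECs of 4 uninjected mice, Cd74, Col4a2 and Timp1 held a library far from the other 3, by a gap over Dixon's 95% limit for the share of the group's range. Chance gives this in about 1 of 20 groups if the levels are normally distributed, which 4 libraries cannot show. For Cd74, the MHC class II invariant chain, the highest day 0 library stood at 726.3 CPM beside 147.1 to 222.9 CPM in the others (gap 0.869 of the range). For Col4a2, a collagen IV chain, the lowest stood at 345.2 CPM beside 590.2 to 607.7 CPM (0.934). For Timp1, a protease inhibitor, 1 library stood at 0.688 CPM and the others at 0, 0 and 0.0104 CPM (0.985). With the others this close to 0 the gap is near 1 at almost any higher level, so Timp1 carries little information here. Cxcl10, an interferon-induced chemokine, was read in 1 of the 4 libraries, at 0.0107 CPM, and with the others at 0 its gap is 1.0 whatever the level, so it carries no information. None of these libraries entered a test.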

How the results depend on the processing

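A total of 96 genes were followed over 1418 alternative values, of which 1276 kept direction and call, 62 lost the call, 42 gained one and 38 turned direction. The 7442 genes called between TCs and ECs became 11502 with mean log10 values, 11390 with those values centred, and 4049 to 8112 on leaving out 1 library, lowest without the TCs of m6. Complete pairs from TCs to ECs were 21 at a limit of 10 CPM and 10% of cells and 92 at 1 CPM and 1%, against 28 and 71 from ECs to TCs. Polarised pairs were 6 and 30 at these limits and 9 to 23 on leaving out 1 library, with 9 to 11 without a TC library. The order of complete pairs between the directions thus reversed at the looser limit. Between the gates 1 gene passed (0.00683% of those tested), and 0% passed with the animal as a replicate block, 1.65% with DESeq2, 8.54% with mean log10 values, 6.92% after centring and 0.430% with all 4 animals. Leaving out 1 gate library gave 0 to 0.00663%, 0 without either gate library of m6 or m7.

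The cause was not tested for any gene that turned direction, but Lif, with no read in ECs, turned only where the library means were subtracted. With mean log10 values, Acvr2a stood at 0.37, Angpt2 at 0.085, Apln at 1.03, Cd47 at 1.31, Cxcl10 at 0.98, Itgb1 at 2.41, Lama5 at 3.31, Plat at 0.34, Pvr at 1.32, Rgmb at 1.00, Tgfb1 at 1.15, Tgfbr1 at 1.55, Tgfbr2 at 2.67, Thbs1 at 0.65, Unc5b at 0.93 and Vcam1 at 1.46. After centring, Bdnf stood at -0.25, Egfr at -1.63, Itgb1 at 0.75, Lama5 at 1.65, Lif at -0.64, Lrp8 at -0.17, Plau at -1.09, Tgfbr2 at 1.01 and Tnfrsf10b at -0.42. With housekeeping library sizes, Calr stood at -0.54, Jag1 at -0.74 and Tnfrsf10b at -0.81. Without the cell of most reads, Adm stood at 0.068 and Cxcl10 at 1.06. Tgfbr2 stood at 0.052 with RLE size factors and with DESeq2. With the animal as a replicate block Tgfbr2 stood at 0.23 and Thbs1 at 1.47. On leaving out 1 library, Itgb1 ran from -0.25 to 0.080, Jag1 from -0.071 to 0.70, Tgfbr2 from -0.48 to 0.50 and Thbs1 from -1.46 to 2.83. Beside the losses given with the results, calls were lost with no filter on low counts for Dag1, Epha2, Lama5, Nrp2 and Plau, with mean log10 values for Ackr3, App, Efna1 and Plau, after centring for Ccl5, Cd47, Cd99l2, F11r, Flrt3, Nrg1, Tgfb3, Tgfbr1 and Tigit, and with RLE size factors for Dag1 and Lama5. Among the genes of polarised pairs, calls were lost with intravascular TCs alone for Acvr1b, Dag1, Epha2 and Hspg2, and with extravascular TCs alone for Dag1, Epha2 and Epha4.

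All alternatives listed for these results were run. The settings with centred log10 values, without the cell of most reads and without ECs that hold platelet reads were chosen after seeing the data, as was the use of housekeeping library sizes and of both log10 scales for polarised pairs. Of the reads of Selp 1 cell held up to 99.5% in a library.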

Other observations

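The MHC class II genes, which present peptides to helper T cells, were read beside Cd74 after its values were seen and are given without a test. H2-Ab1 stood at 61.4, 435.1 and 317.1 CPM in the ECs of m5, m6 and m7 and at 394.6 to 497.2 CPM in the ECs of uninjected mice. H2-Aa stood at 44.9, 129.04 and 152.6 CPM against 158.95 to 317.7 CPM, and H2-Eb1 at 24.7, 97.8 and 153.9 CPM against 147.1 to 297.4 CPM. The ECs of m5 were the lowest library for Cd74 and these 3 genes. Ciita, the activator of the class II genes, stood at 5.73, 6.51 and 3.76 CPM against 11.04 to 64.8 CPM, and there m7 was the lowest.

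A read of the platelet genes Pf4 or Ppbp was held by 1 EC of m5 (0.319%), 16 of m6 (5.46%) and 19 of m7 (5.67%). Without those ECs 35 pairs towards ECs and 45 towards TCs were complete.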
